A study of Homo sapiens with 9 samples.

Results

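The genes of cholesterol and fatty acid synthesis, together with the regulators that set their transcription, were examined in MM.1S cells, a long-established line from a human multiple myeloma. The list held 38 symbols, and a gene was taken from the transcript cluster (the set of probes that reads 1 gene) annotated with exactly that 1 symbol. Of the 38, 34 were found, each with 1 cluster, among 22465 genes measured in all, and 33 exceeded the array median at least 3 times over the 9 arrays and entered the test with 15842 genes in all. ACSL6, an acyl-CoA synthetase, lay below the array median on all 9 arrays and was not tested. FDFT1, FADS1, ACSL3 and ABCA1-AS1 were not analysed here.

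The cells were collected after 24 h in DMSO, the solvent, in 5 nM HL13 dissolved in DMSO, or in 5 nM LBH589 dissolved in DMSO, with 3 arrays per group. LBH589 is the histone deacetylase inhibitor panobinostat, and HL13 is a compound that the labels give by its code alone. Total RNA was labelled with biotin and hybridised to whole-transcript arrays, and every value below is a log2 intensity, so that a difference of 1 is a 2-fold change. The labels describe the arrays as biological replicates but name no cultures, so the p values reflect only the scatter among these samples, some of which may be technical. MM.1S comes from 1 patient and stands for 1 cell line.

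Cells make cholesterol from acetyl-CoA through mevalonate, isoprenoid units, squalene and lanosterol, and they make fatty acids from the same acetyl-CoA by carboxylation, chain building, elongation and desaturation. Both routes are driven by the sterol regulatory element binding proteins, transcription factors that SCAP carries out of the endoplasmic reticulum when sterols run low and that the INSIG proteins hold there when sterols are plentiful. Plasma cells and myeloma cells carry an extended endoplasmic reticulum for antibody secretion, whose membranes are built from these lipids.

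All 10 plasma cell markers checked, among them SDC1, IRF4 and XBP1, lay above the array median on all 9 arrays. Among markers of other cells, 2 of 4 T cell genes (CD3E and CD8A) and 2 of 4 monocyte genes (CSF1R and S100A9) did so. So did 1 of 4 hepatocyte genes (APOA1), 2 of 5 adipocyte genes (PLIN1 and CIDEC) and 2 of 4 fibroblast genes (COL1A1 and COL1A2). The means of these markers reached 6.90. ALB, TTR and SERPINA1 of hepatocytes and ADIPOQ, LEP and FABP4 of adipocytes were not above the median on all 9 arrays. The array medians ran from 5.33 to 5.38, and the arrays of a group correlated at 0.996 or more over all probe sets. At 6.94 to 7.83% of probe sets, 2 or more arrays of a group carried exactly the same value, which lowers the SD there, and why was not tested. Among the lipid genes this held for 5 in DMSO (SREBF1, INSIG1, MVK, DHCR7 and ACSL4), 2 in HL13 (HSD17B7 and FADS2) and 3 in LBH589 (SREBF2, ACSL1 and ACSL6). Arrays of different groups also carried equal values at MVK, DHCR7, FADS2, FASN and the untested ACSL6, which can draw group means together.

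With HL13, 12 of the 33 genes were higher than in DMSO and 13 were lower (limma, Benjamini-Hochberg adjusted p under 0.05 over all genes tested), which is 75.8% of them beside 58.2% of all 15842 genes. Of all genes, 29.5% were higher and 28.7% lower. With LBH589, 15 were higher and 13 lower, 84.8% beside 54.2% of all genes, of which 28.1% were higher and 26.1% lower. The arrays of the groups did not overlap for 30 of the 33 with HL13 (90.9%, all genes 66.6%) and for 28 with LBH589 (84.8%, all genes 57.5%). The median log2 fold change was −0.04 with HL13 and 0.02 with LBH589 (all genes 0.0076 and 0.013), whereas the median size without regard to sign was 0.38 and 0.31 (all genes 0.17 and 0.15). The list thus held changes in both directions that nearly balanced. All 33 genes lay above the array median on all 9 arrays, whereas a gene needed only 3 such arrays to be tested. The median SE with HL13 was 0.037 for the list and 0.043 for all genes. The shares and sizes of all genes were not matched to the list for brightness, so the gaps between them may partly reflect it, which was not tested. In bulk RNA, fewer cells that express a gene and less RNA per cell cannot be told apart. The comparisons with DMSO share the DMSO arrays, so their values are set side by side without a test of their likeness.

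**Figure D1:**
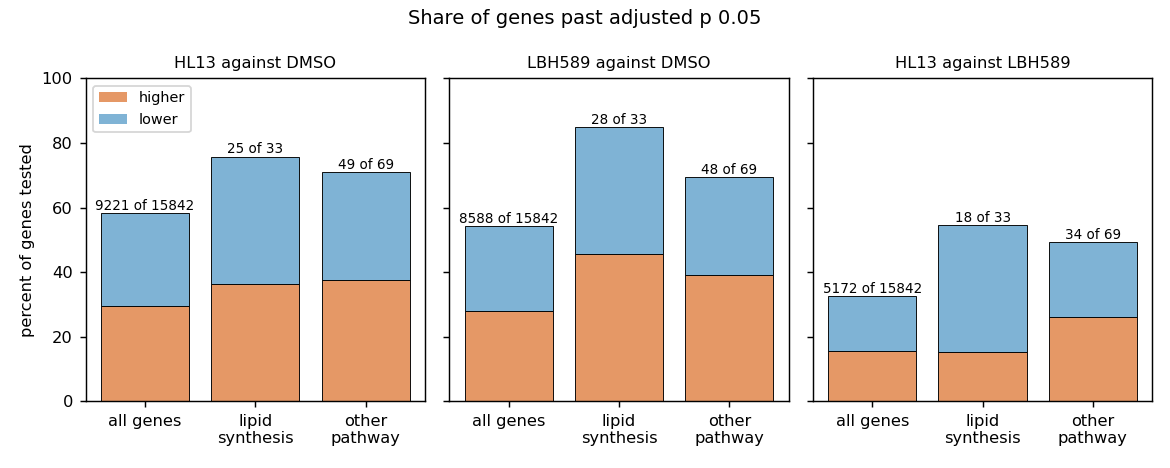
Percent of genes past an adjusted p of 0.05 (y axis, stacked bars, higher in orange and lower in blue) among all genes tested, the 33 lipid synthesis genes and 69 other genes of the pathways, in each of the 3 comparisons. The lipid synthesis genes were called at 75.8%, 84.8% and 54.5%, beside 58.2%, 54.2% and 32.6% of all genes.

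In both treatments 11 genes were higher (SREBF1, INSIG1, INSIG2, SCAP, IDI1, SQLE, TM7SF2, HSD17B7, SC5D, ELOVL5 and ACSL1). A further 11 were lower in both (SREBF2, ACAT2, FDPS, CYP51A1, MSMO1, EBP, ACLY, ACACA, FASN, ELOVL1 and ACSL5). The matching share of all genes was not counted, and the treatments share the DMSO arrays. These counts therefore do not set the list apart from other genes. LSS was called lower with HL13 and higher with LBH589, and MVK, SCD and FADS2 passed the test in neither. The remaining 7 passed with 1 compound and not with the other, which by itself does not show a difference between the compounds. The difference between the compounds was therefore tested directly.

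**Figure D2:**
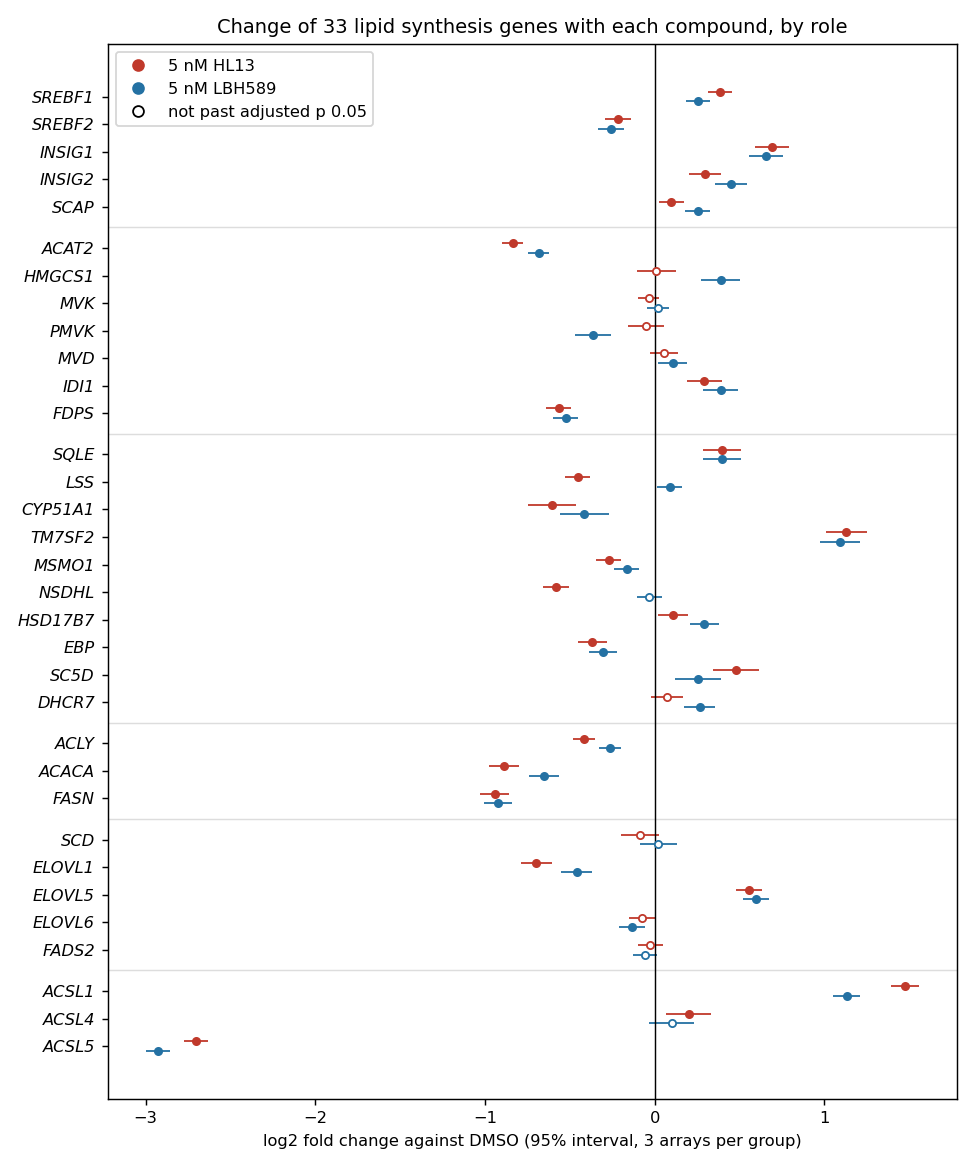
Log2 fold change against DMSO (x axis) of each of the 33 genes (y axis, grouped from top to bottom as regulators, mevalonate enzymes, sterol enzymes, fatty acid synthesis, elongases and desaturases, and acyl-CoA synthetases) with 5 nM HL13 (red) and 5 nM LBH589 (blue), with 95% intervals from 3 arrays per group. Open points did not pass an adjusted p of 0.05, and ACSL5 at −2.70 and −2.93 and ACSL1 at 1.48 and 1.13 lie farthest from 0.

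All 5 regulators passed the test with both compounds, 4 higher and 1 lower in each. Of all genes, 58.2% passed with HL13 and 54.2% with LBH589. SREBF1, which encodes the family member known best for driving fatty acid genes, read 7.75, 7.75 and 7.72 on the DMSO arrays, 8.08, 8.15 and 8.15 on the HL13 arrays and 8.04, 7.98 and 7.98 on the LBH589 arrays. The 3 groups did not overlap, with DMSO lowest and HL13 highest. SREBF1 rose by 0.38 ± 0.032 (SE) with HL13 (adjusted p = 1.9e-06) and by 0.26 with LBH589 (adjusted p = 5.2e-05). The difference between the compounds, 0.13, also passed (adjusted p = 0.0111).

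SREBF2, whose product drives above all the cholesterol genes, moved the other way. Its DMSO arrays read 8.53, 8.44 and 8.43 and its HL13 arrays 8.23, 8.28 and 8.24. Its 3 LBH589 arrays carried exactly the same value, 8.21, which lowers the SD there. Every treated array lay below every DMSO array. SREBF2 fell by 0.22 on the log2 scale with HL13 (adjusted p = 0.000245) and by 0.26 with LBH589 (adjusted p = 7.4e-05), and the compounds differed by 0.04 with a 95% interval from −0.03 to 0.12 (adjusted p = 0.417).

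INSIG1, an anchor for SCAP and itself a classic target of the sterol regulatory element binding proteins, had values of 10.46, 10.46 and 10.45 in DMSO, 11.11, 11.21 and 11.12 with HL13 and 11.04, 11.09 and 11.21 with LBH589. All treated arrays were above all DMSO arrays, and the treated groups overlapped each other. The rise was 1.61-fold with HL13 (log2 0.69 ± 0.044, adjusted p = 2.46e-07) and 1.58-fold with LBH589 (0.66, adjusted p = 4.4e-07), with a difference between the compounds of 0.03 (95% interval −0.06 to 0.13). INSIG2, its paralog with the same anchoring role, rose by 0.30 with HL13 and by 0.45 with LBH589 (adjusted p = 0.000122 and 5.47e-06). The difference of −0.15 had an adjusted p of 0.0181, and this call was lost without any 1 of the 3 HL13 arrays, at an adjusted p of 0.0501 to 0.0552 and differences from −0.16 to −0.15. SCAP, the escort protein, rose by 0.25 with LBH589 (adjusted p = 7.11e-05) and by 0.10 with HL13 (adjusted p = 0.0277). The call with HL13 was lost without DMSO array 1 or 3 or HL13 array 2 or 3, at 0.08 to 0.10 and an adjusted p of 0.0504 to 0.102. SCAP was lower with HL13 than with LBH589 by a log2 difference of −0.16 (adjusted p = 0.00471).

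The promoters of the SREBF2 and INSIG1 genes are printed because these regulators moved in opposite directions. They are the 200 bases before the start in the RefSeq annotation (GRCh38.p14, 5′ to 3′ on the gene's strand), SREBF2 at chr22:41832905-41833104 (+) and INSIG1 at chr7:155297678-155297877 (+). Capitals mark 3 motifs searched on both strands, TCACNCCAC (a form of the sterol regulatory element), CCAAT (the box bound by NF-Y, read as ATTGG on the other strand) and CACGTG (an E-box, which reads the same on both strands).
SREBF2: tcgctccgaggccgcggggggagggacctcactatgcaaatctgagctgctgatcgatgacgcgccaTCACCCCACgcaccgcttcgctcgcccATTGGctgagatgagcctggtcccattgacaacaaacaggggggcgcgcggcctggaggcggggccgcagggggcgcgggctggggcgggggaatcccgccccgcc
INSIG1: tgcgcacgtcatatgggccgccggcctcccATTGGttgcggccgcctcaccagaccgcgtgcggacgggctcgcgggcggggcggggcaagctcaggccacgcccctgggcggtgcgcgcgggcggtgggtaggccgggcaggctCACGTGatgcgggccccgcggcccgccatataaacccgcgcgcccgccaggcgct
The SREBF2 stretch held the sterol element letters 133 bases before the start and an inverted CCAAT box 106 bases before it. The INSIG1 stretch held an inverted CCAAT box at 170 and an E-box at 55 bases before the start, and no letters of TCACNCCAC. Such matches describe letters only and say nothing of binding.

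RefSeq windows from 250 bases before to 50 after the start were found for 31 of the 34 genes, all but ACAT2, SQLE and FASN, and these genes had 52 windows. CCAAT stood in at least 1 window of 22 of the 31 genes (71.0%, beside 39.7% of 27305 genes in the table) and in 26 of the 52 windows (34.6% of all 35116 windows held it). TCACNCCAC was found in 3 genes, SREBF2, ACSL1 and ACSL6 (5.77% of windows, 1.13% of all), and CACGTG in 5, INSIG1, SCAP, LSS, SC5D and ELOVL5 (11.5% of windows, 7.26% of all). Set beside the calls with HL13, CCAAT was held by 7 of 11 genes that were higher, 9 of 11 that were lower and 6 of 8 that did not pass. With LBH589 these counts were 11 of 14, 7 of 11 and 4 of 5.

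The enzymes that lead to farnesyl diphosphate did not move as a block. Of the 7 mevalonate enzymes tested, 1 was higher and 2 were lower with HL13, and 3 were higher and 3 lower with LBH589. The shares called were 42.9% with HL13 and 85.7% with LBH589, beside 58.2% and 54.2% of all genes. ACAT2, which joins acetyl-CoA units in the first step, was lower on every treated array than on any DMSO array, at 8.04, 8.003 and 8.01 in DMSO, 7.19, 7.19 and 7.17 with HL13 and 7.33, 7.32 and 7.36 with LBH589. It fell by 0.84 with HL13 and by 0.68 with LBH589 on the log2 scale (adjusted p = 1.95e-09 and 1.02e-08), and the HL13 arrays were the lower of the treated groups (difference −0.15, adjusted p = 0.00201). ACAT2, PMVK, NSDHL and ACACA are given array by array because of their values.

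HMGCS1, the synthase that builds HMG-CoA, separated the compounds. Its values were 8.24, 8.31 and 8.27 in DMSO, 8.29, 8.31 and 8.25 with HL13 and 8.54, 8.68 and 8.76 with LBH589. The HL13 arrays overlapped the DMSO arrays, and all LBH589 arrays were above both. With LBH589 it rose 1.31-fold (log2 0.39 ± 0.051, adjusted p = 7.45e-05), whereas with HL13 the log2 fold change was 0.01 with a 95% interval from −0.10 to 0.13 (adjusted p = 0.884). HL13 was below LBH589 by a log2 difference of −0.38 (adjusted p = 0.000307).

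PMVK, the kinase that adds the next phosphate to phosphomevalonate, also separated the compounds, here with LBH589 as the lower. It read 8.81, 8.84 and 8.85 in DMSO, 8.74, 8.79 and 8.81 with HL13 and 8.55, 8.50 and 8.35 with LBH589, so that the LBH589 arrays were the lowest and the HL13 arrays lay just under the DMSO arrays. PMVK fell by 0.36 on the log2 scale with LBH589 (adjusted p = 7.52e-05). With HL13 its log2 fold change was −0.05 (95% interval −0.16 to 0.05), and the compounds differed by 0.31 (adjusted p = 0.000683).

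Mevalonate kinase, MVK, did not pass the test with either compound, at −0.04 with HL13 (95% interval −0.10 to 0.03) and 0.02 with LBH589 (−0.04 to 0.08). MVD, the decarboxylase that makes isopentenyl diphosphate, was 0.11 higher with LBH589 (adjusted p = 0.0339) and had a log2 fold change of 0.06 with HL13 (95% interval −0.03 to 0.14), with a difference between the compounds of −0.05 that did not pass (adjusted p = 0.369). The call with LBH589 was lost without DMSO array 1 or 2, HL13 array 2, or LBH589 array 1 or 2, at 0.08 to 0.11 and an adjusted p of 0.052 to 0.121. IDI1, the isomerase of the isoprenoid units, rose by 0.29 with HL13 and by 0.39 with LBH589 (adjusted p = 0.000253 and 3.48e-05). The compounds differed at IDI1 by −0.09 (adjusted p = 0.157), a difference that passed only without LBH589 array 1 (−0.15, adjusted p = 0.0124). FDPS, the farnesyl diphosphate synthase, fell by 0.57 and 0.52 on the log2 scale (adjusted p = 1.09e-07 and 2.36e-07).

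From squalene to cholesterol, 10 enzymes were tested. With HL13, 4 of them were higher and 5 lower, and with LBH589, 6 were higher and 3 lower. Each compound thus gave 90% called, beside 58.2% of all genes with HL13 and 54.2% with LBH589. SQLE, the squalene epoxidase and a rate-limiting step of the sterol branch, read 7.92, 7.93 and 7.91 in DMSO, 8.33, 8.34 and 8.29 with HL13 and 8.22, 8.30 and 8.44 with LBH589. Treated arrays were all above DMSO, and the LBH589 arrays spanned the HL13 arrays. The rise was 1.32-fold with each compound (log2 0.40 ± 0.050, adjusted p = 4.38e-05 with HL13 and 4.85e-05 with LBH589), and the 95% interval of the difference between compounds ran from −0.11 to 0.11.

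LSS, which closes the ring to lanosterol, read 8.93, 8.91 and 8.96 in DMSO, 8.45, 8.48 and 8.52 with HL13 and 9.06, 9.02 and 8.99 with LBH589. All HL13 arrays were below all DMSO arrays, and all LBH589 arrays were above them. With HL13, LSS fell by 0.45 on the log2 scale (SE 0.032, adjusted p = 5.39e-07), and it was lower with HL13 than with LBH589 by a log2 difference of −0.54 (adjusted p = 1.57e-06). The rise with LBH589 was small, 0.09 (adjusted p = 0.04), and its call was lost without DMSO array 1 or 2, HL13 array 2, or LBH589 array 1 or 2, at 0.07 to 0.09 and an adjusted p of 0.0626 to 0.126. It was also lost with each array centred on its median, with the replicate number as a block and with only the DMSO and LBH589 arrays in the fit (adjusted p from 0.0668 to 0.0909). The opposite calls therefore depended on the settings, while the difference between the compounds did not.

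NSDHL, a dehydrogenase that helps to remove methyl groups from the sterol ring, stood beside LSS as the gene with the widest gap between the compounds among the 33. It read 8.16, 8.16 and 8.13 in DMSO, 7.51, 7.57 and 7.63 with HL13 and 8.11, 8.11 and 8.13 with LBH589. The HL13 arrays stood below all others, and the LBH589 arrays overlapped the DMSO arrays. NSDHL fell by 0.58 on the log2 scale with HL13 (adjusted p = 1.18e-07), had a log2 fold change of −0.03 with LBH589 (95% interval −0.11 to 0.05), and differed between the compounds by −0.55 (adjusted p = 1.92e-06).

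TM7SF2, a sterol reductase that acts after the ring is closed, was the sterol gene that rose most with both compounds. Its values were 7.45, 7.52 and 7.35 in DMSO, 8.51, 8.55 and 8.65 with HL13 and 8.60, 8.50 and 8.50 with LBH589. Treated arrays lay far above the DMSO arrays and overlapped each other. TM7SF2 rose 2.19-fold with HL13 and 2.14-fold with LBH589 (log2 1.13 and 1.09, each ± 0.053, adjusted p = 2.33e-08 and 3.85e-08), and the difference between compounds was 0.04 (95% interval −0.08 to 0.15).

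**Figure D3:**
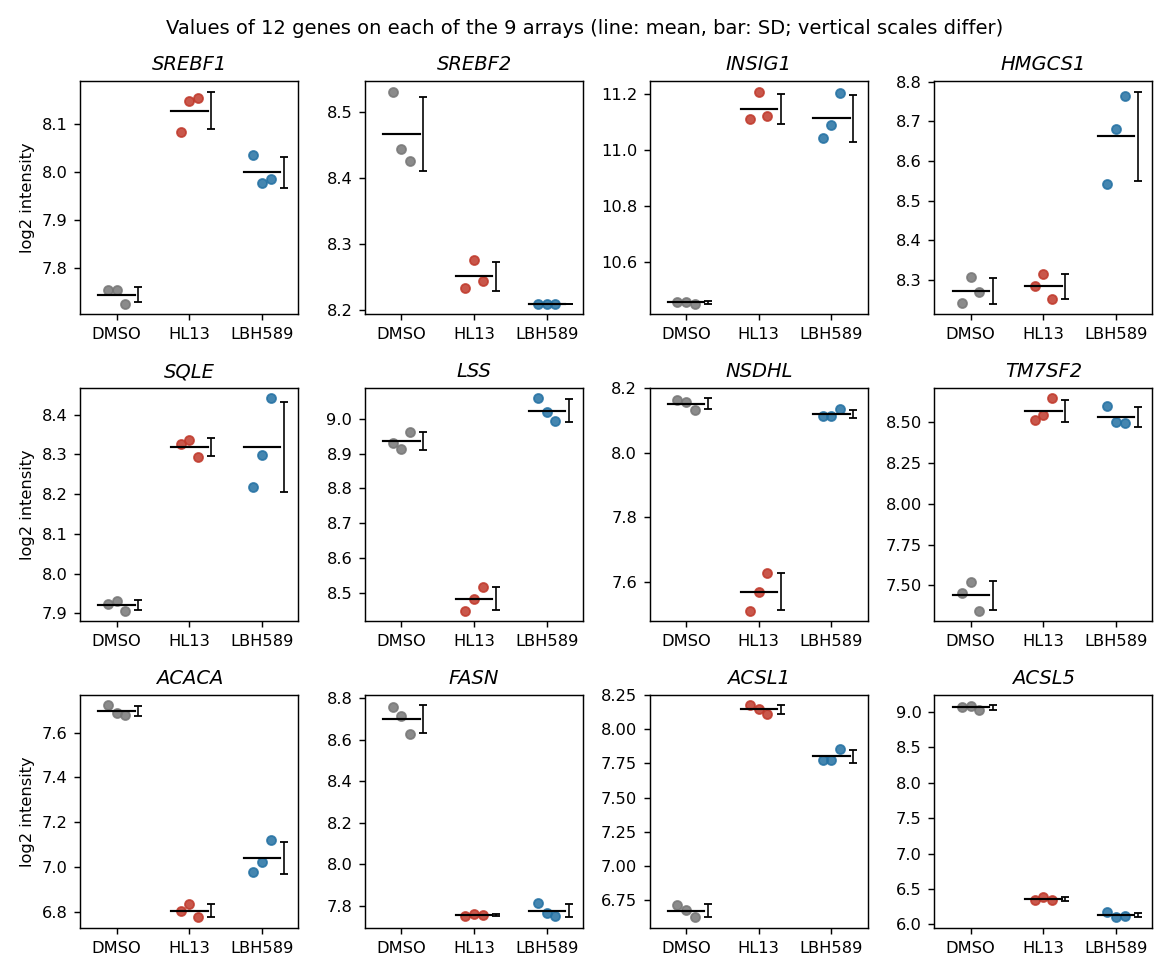
Log2 intensity (y axes, which differ in scale) of 12 genes on each of the 9 arrays in DMSO (grey), HL13 (red) and LBH589 (blue), with the group mean as a line and the SD of 3 arrays as a bar. At HMGCS1 the LBH589 arrays stand above the others, at LSS and NSDHL the HL13 arrays stand below the others, and for TM7SF2, ACACA, FASN, ACSL1 and ACSL5 both treated groups lie apart from DMSO.

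The promoters of TM7SF2, LSS and NSDHL are printed as the sterol gene that rose most with both compounds and the pair that set the compounds apart. They are again the 200 bases before the start, TM7SF2 at chr11:65111672-65111871 (+), LSS at chr21:46228775-46228974 (−) and NSDHL at chrX:152830863-152831062 (+), with the same motifs in capitals.
TM7SF2: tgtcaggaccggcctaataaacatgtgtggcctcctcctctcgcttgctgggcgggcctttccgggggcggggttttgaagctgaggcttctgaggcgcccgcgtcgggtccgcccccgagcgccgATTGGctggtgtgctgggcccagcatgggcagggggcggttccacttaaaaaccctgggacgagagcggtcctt
LSS: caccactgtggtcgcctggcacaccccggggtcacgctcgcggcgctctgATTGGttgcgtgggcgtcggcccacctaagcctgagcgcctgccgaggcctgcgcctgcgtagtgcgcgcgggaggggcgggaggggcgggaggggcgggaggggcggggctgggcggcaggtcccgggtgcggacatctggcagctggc
NSDHL: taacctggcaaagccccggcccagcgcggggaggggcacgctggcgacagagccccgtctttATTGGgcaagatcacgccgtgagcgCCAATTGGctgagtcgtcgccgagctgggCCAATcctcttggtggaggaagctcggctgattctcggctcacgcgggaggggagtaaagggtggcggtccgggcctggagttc
Each held CCAAT letters and none held TCACNCCAC in the printed stretch. TM7SF2 had 1 inverted CCAAT box 74 bases before the start and LSS had 1 at 150 bases. NSDHL had 4 CCAAT boxes, at 138, 113, 110 and 84 bases before the start, of which a pair shared 2 bases. In the wider windows CCAAT was held by 39.7% of all genes, and its part in these changes was not tested.

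Among the other sterol enzymes, CYP51A1, which demethylates lanosterol, fell by 0.61 with HL13 and by 0.41 with LBH589 on the log2 scale (adjusted p = 1.26e-05 and 0.000255). Its difference between the compounds, −0.19, had an adjusted p of 0.044, and it was lost without DMSO array 1 or 3, HL13 array 2 or 3, or LBH589 array 2 or 3, at −0.21 to −0.13 and an adjusted p of 0.0558 to 0.158. MSMO1, a methylsterol oxidase, fell by 0.27 and 0.16 (adjusted p = 3.55e-05 and 0.00143). Its difference of −0.11 (adjusted p = 0.0317) was lost without HL13 array 1 or 3 or LBH589 array 2 or 3, at −0.10 to −0.09 and an adjusted p of 0.0568 to 0.115. EBP, the isomerase that shifts a double bond of the sterol ring, fell by 0.37 and 0.31 (adjusted p = 8.89e-06 and 4.07e-05).

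SC5D, a sterol desaturase, rose by 0.48 with HL13 and by 0.26 with LBH589 (adjusted p = 5.01e-05 and 0.00415). The larger rise with HL13 (difference 0.22, adjusted p = 0.0181) was lost as a call without HL13 array 2 or 3 or LBH589 array 3, at 0.16 to 0.22 and an adjusted p of 0.05 to 0.0699. HSD17B7, a ketosteroid reductase of the pathway, rose by 0.29 with LBH589 (adjusted p = 8.29e-05). With HL13 it was 0.11 higher (adjusted p = 0.0371), a call lost without DMSO array 1 or 2, any HL13 array, or LBH589 array 2, at 0.09 to 0.11 and an adjusted p of 0.0526 to 0.12, and its 3 HL13 arrays carried the same value. DHCR7, the reductase of the last step, rose by 0.26 with LBH589 (adjusted p = 0.000272). With HL13 its log2 fold change was 0.07 (95% interval −0.02 to 0.17), and HL13 was below LBH589 by a difference of −0.19 (adjusted p = 0.00544). HSD17B7 was also lower with HL13 than with LBH589 (−0.19, adjusted p = 0.00453).

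The palmitate enzymes of the list, ACLY, ACACA and FASN, were lower with both compounds, 3 of 3 in each, beside 28.7% of all genes with HL13 and 26.1% with LBH589. Of 15 other genes of fatty acid synthesis, given below, 10 were higher and 3 lower with HL13. Among these, ACSS2 rose by 0.34 with HL13 and by 0.26 with LBH589 (adjusted p = 1.94e-06 and 2.14e-05). ACACB rose by 0.30 and 0.20 (adjusted p = 8.07e-06 and 0.000221). ACSS2 and ACACB were singled out after their values were seen. ACLY, which supplies cytosolic acetyl-CoA from citrate, fell by 0.42 with HL13 and by 0.26 with LBH589 on the log2 scale (adjusted p = 5.24e-07 and 2.16e-05). ACACA, a carboxylase that makes malonyl-CoA, read 7.72, 7.69 and 7.68 in DMSO, 6.81, 6.84 and 6.78 with HL13 and 6.98, 7.03 and 7.12 with LBH589. Its groups were fully apart, with HL13 lowest. ACACA fell by 0.89 with HL13 and by 0.65 with LBH589 (adjusted p = 1.51e-08 and 1.86e-07). At ACLY and ACACA the fall was larger with HL13, with differences between the compounds of −0.15 and −0.24 (adjusted p = 0.00262 and 0.00113).

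FASN, the synthase that builds the chain, read 8.76, 8.72 and 8.63 in DMSO, 7.75, 7.76 and 7.76 with HL13 and 7.81, 7.77 and 7.75 with LBH589. The treated groups overlapped each other and lay wholly below DMSO. FASN was 1.92-fold lower with HL13 (log2 −0.94 ± 0.037, adjusted p = 6.49e-09) and 1.90-fold lower with LBH589 (log2 −0.92, adjusted p = 1e-08), and the difference between the compounds was −0.02 (95% interval −0.10 to 0.06).

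SCD, which introduces the double bond that makes oleate, read 10.74, 10.55 and 10.67 in DMSO, 10.49, 10.62 and 10.59 with HL13 and 10.69, 10.66 and 10.67 with LBH589. DMSO arrays overlapped both treated groups. The log2 fold change was −0.09 with HL13 (95% interval −0.20 to 0.02, adjusted p = 0.17) and 0.02 with LBH589 (−0.09 to 0.13, adjusted p = 0.757). Without DMSO array 2, the lowest of the 3, the value with HL13 was −0.14 and passed (adjusted p = 0.0342). FADS2, the first desaturase for polyunsaturated chains, gave −0.02 with HL13 (95% interval −0.10 to 0.05) and −0.06 with LBH589 (−0.13 to 0.02).

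The elongases went separate ways. ELOVL5, which lengthens polyunsaturated chains, rose by 0.56 with HL13 and by 0.60 with LBH589 (adjusted p = 1.98e-07 and 1.45e-07). ELOVL1, which makes very long saturated chains, fell by 0.70 and 0.46 on the log2 scale (adjusted p = 1.27e-07 and 3.87e-06), more with HL13 (difference −0.24, adjusted p = 0.00137). ELOVL6, which takes palmitate to stearate, fell by 0.13 with LBH589 (adjusted p = 0.00741) and had a log2 fold change of −0.08 with HL13 (95% interval −0.15 to 0.0012). The difference between the compounds at ELOVL6, 0.06, did not pass (adjusted p = 0.26).

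The acyl-CoA synthetases, which activate free fatty acids for use, held the largest changes of the list in both directions. ACSL1, the form known best from fat, liver and heart, read 6.71, 6.68 and 6.62 in DMSO, 8.18, 8.15 and 8.11 with HL13 and 7.78, 7.78 and 7.85 with LBH589. The 3 groups did not overlap, with HL13 highest. ACSL1 rose 2.78-fold with HL13 (log2 1.48 ± 0.037, adjusted p = 3.05e-10) and 2.19-fold with LBH589 (log2 1.13, adjusted p = 2.19e-09), and it was 1.27-fold higher with HL13 than with LBH589 (adjusted p = 6.45e-05).

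ACSL5, a form found on mitochondria and the endoplasmic reticulum and abundant in intestine, read 9.07, 9.08 and 9.02 in DMSO, 6.34, 6.39 and 6.34 with HL13 and 6.17, 6.11 and 6.12 with LBH589. Here the order of the compounds was turned, with all LBH589 arrays below all HL13 arrays. ACSL5 was 6.51-fold lower with HL13 (log2 −2.70 ± 0.032, adjusted p = 3.71e-12) and 7.60-fold lower with LBH589 (log2 −2.93, adjusted p = 5.71e-12), with a difference of 0.22 between the compounds (adjusted p = 0.00045). All 9 arrays read it above their median, and the gene overlaps ZDHHC6 in the RefSeq annotation. ACSL5, ACSL1 and TM7SF2 were the genes of the list that moved at least 2-fold with either compound, 3 of 33 (9.09%) with each, beside 5.58% of all genes with HL13 and 4.31% with LBH589.

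ACSL4, which prefers arachidonic acid and feeds lipids open to peroxidation, rose by 0.20 with HL13 (adjusted p = 0.013), a call lost without HL13 array 1 (0.17, adjusted p = 0.056). With LBH589 its log2 fold change was 0.10 (95% interval −0.03 to 0.23), and the difference between the compounds, 0.10, did not pass (adjusted p = 0.242). The untested ACSL6 read 4.44 on each DMSO array, 4.50 to 4.52 with HL13 and 4.43 to 4.44 with LBH589. The promoter of ACSL5 is printed for its fall, the largest of the list, as the 200 bases before the start of the first of its 2 RefSeq windows, at chr10:112375068-112375267 (+).
ACSL5: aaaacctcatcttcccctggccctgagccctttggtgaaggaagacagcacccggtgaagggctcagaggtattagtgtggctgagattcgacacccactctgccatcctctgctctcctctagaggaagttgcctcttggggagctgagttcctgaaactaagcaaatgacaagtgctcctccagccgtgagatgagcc
None of the 3 motifs was in this stretch, so it carries no capitals.

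The compounds were compared directly at the same dose and time over the 33 genes. HL13 was higher at 5 and lower at 13, 54.5% beside 32.6% of all genes, and the groups did not overlap at 23 (69.7%, all genes 42.3%). HL13 lay below LBH589 at 39.4% of the list and at 16.9% of all genes, and above it at 15.2% and 15.7%. No gene of the list differed by 2-fold (all genes 0.284%), and the median log2 difference was −0.06 (all genes −0.0016). By role, HL13 was lower at 6 and higher at 1 of 10 sterol enzymes, lower at 2 and higher at 1 of both the 7 mevalonate enzymes and the 5 regulators, lower at 2 of 3 palmitate enzymes, and higher at 2 of 3 acyl-CoA synthetases. For the 15 genes that did not pass, the 95% intervals of the difference reached from −0.22 to 0.23.

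**Figure D4:**
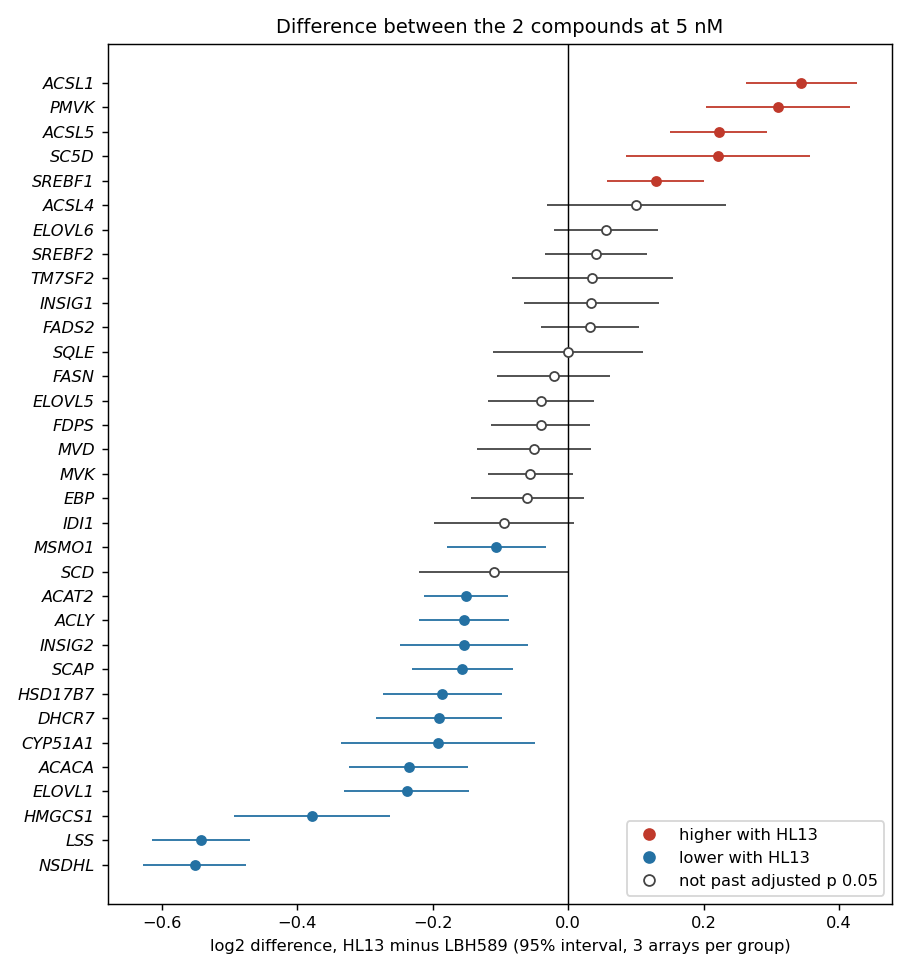
Log2 difference between HL13 and LBH589 at 5 nM (x axis) for the 33 genes (y axis, in order of the difference), with 95% intervals from 3 arrays per group. Red points were higher and blue points lower with HL13, and open points did not pass an adjusted p of 0.05. NSDHL at −0.55 and LSS at −0.54 lie at 1 end, and ACSL1 at 0.34 and PMVK at 0.31 at the other.

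Within the LBH589 group, array 3 read highest and array 1 lowest at INSIG1, INSIG2, HMGCS1, IDI1, SQLE, CYP51A1, HSD17B7, ACACA, ELOVL5 and ACSL4. The reverse, array 1 highest and array 3 lowest, held at MVK, PMVK, MVD, FDPS, LSS, TM7SF2, DHCR7, FASN, ELOVL6 and FADS2. Over the 33 genes, LBH589 array 1 was alone the highest of its group at 16 and alone the lowest at 11, array 2 at 2 and 9, and array 3 at 14 and 11. What these orders follow was not tested. The LBH589 arrays had SDs of 0.112 at HMGCS1 and 0.113 at SQLE, beside 0.031 and 0.022 with HL13.

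A further 79 genes of the same pathways were listed, of which 69 were tested. With HL13, 26 were higher and 23 lower (71.0%, beside 58.2% of all genes, 29.5% higher and 28.7% lower). With LBH589, 27 were higher and 21 lower (69.6%, beside 54.2% of all genes, 28.1% higher and 26.1% lower). Of 10 other regulators, none was higher and 5 were lower with HL13, and 1 was higher and 4 were lower with LBH589, which is 50% called in each and below the share of all genes. ERLIN1, an endoplasmic reticulum protein that takes part in turnover of sterol-sensing proteins, fell by 0.94 with HL13 and by 0.49 with LBH589 on the log2 scale (adjusted p = 4.1e-09 and 6.32e-07). MBTPS2, a protease that releases the sterol regulatory element binding proteins, fell by 0.30 with HL13 (adjusted p = 0.00396) and had a log2 fold change of −0.11 with LBH589 (adjusted p = 0.237).

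Of 12 other isoprenoid and sterol genes, 1 was higher and 8 were lower with HL13, and 2 were higher and 5 lower with LBH589. The shares called were 75% and 58.3%, beside 58.2% and 54.2% of all genes, so that with LBH589 the share was near that of all genes. PDSS1, which builds the side chain of coenzyme Q from isoprenoid units, fell by 1.04 with HL13 and fell by 0.80 with LBH589 on the log2 scale (adjusted p = 9.64e-09 and 8.49e-08). TMEM97, a sterol-binding membrane protein, fell by 0.88 and 0.54 (adjusted p = 1.31e-07 and 6.97e-06). ERG28, singled out after its values were seen and known as a scaffold of the sterol demethylating enzymes from yeast, fell by 0.14 with HL13 (adjusted p = 0.0118) and rose by 0.27 with LBH589 (adjusted p = 0.000167).

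Of 15 other genes of fatty acid synthesis, 10 were higher and 3 lower with HL13, and 9 were higher and 3 lower with LBH589. That is 66.7% and 60% higher, beside 29.5% and 28.1% of all genes. ELOVL2 and ELOVL3 had DMSO means of 4.61 and 4.86, below the array medians, and passed the filter through treated arrays. Such genes enter the test through the groups where they are high, so these shares are no support for a rise of the list. ELOVL4, which makes very long chains, rose by 1.23 and 1.28 (adjusted p = 3.07e-08 and 2.95e-08). ELOVL3, an elongase of skin and brown fat, rose by 1.26 and 0.79 (adjusted p = 3.61e-08 and 1.64e-06) from a DMSO mean of 4.86, below the array medians. Of 9 genes of cholesterol uptake and transport, 5 were higher and 3 lower with HL13, and 6 were higher and 1 lower with LBH589. These were 88.9% and 77.8% called, beside 58.2% and 54.2% of all genes. SOAT1, which esterifies cholesterol for storage, rose by 0.73 and 0.64 (adjusted p = 4.6e-07 and 1.59e-06), and LIPA, the lysosomal lipase that frees it, rose by 0.70 and 0.42 (adjusted p = 5.46e-08 and 2.93e-06).

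Of 12 genes of glycerolipid synthesis and lipid droplets, 6 were higher and 2 lower with HL13, and 4 were higher and 6 lower with LBH589. Thus 66.7% and 83.3% were called, beside 58.2% and 54.2% of all genes. GPAT4 and GPAT3, acyltransferases of the first step that were singled out after their values were seen, were called in opposite directions. GPAT4 rose by 0.14 with HL13 (adjusted p = 0.00373) and fell by 0.16 with LBH589 (adjusted p = 0.0018), and GPAT3 rose by 0.11 (adjusted p = 0.0304) and fell by 0.13 (adjusted p = 0.0123) on the log2 scale. PLIN3, a lipid droplet coat protein, rose by 0.98 and 0.47 (adjusted p = 7.45e-09 and 2.39e-06). LPIN2, a phosphatidate phosphatase, rose by 0.74 and 0.47 (adjusted p = 5.93e-08 and 2.46e-06). Of 11 genes of fatty acid oxidation, 4 were higher and 2 lower with HL13, and 5 were higher and 2 lower with LBH589, so that 54.5% and 63.6% were called, near the 58.2% and 54.2% of all genes. HADHB, a subunit of the mitochondrial trifunctional protein, rose by 0.67 and 0.87 (adjusted p = 2.51e-08 and 5.3e-09), whereas SLC25A20, the carrier that brings acylcarnitines into mitochondria, fell by 0.70 and 0.73 on the log2 scale (adjusted p = 2.54e-08 and 2.59e-08).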

How the data were processed

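The authors deposited log2 intensities, 1 value for each transcript cluster on each array, and these entered the tests without further scaling. The base was inferred from the range of values, 1.72 to 14.6. Summarisation and normalization of the arrays are not given in the sources used here, and the methods of the study describe bulk RNA sequencing, whereas these are array values. Of 70523 probe sets, 23781 carried 1 gene symbol in the platform annotation, 1543 several and 45199 none, and only the first kind was used. The cluster with the highest mean was taken per gene, and genes above the array median on at least 3 of 9 arrays were kept. No detection flags or background values were used, so fold changes of dim genes may be understated, and 0 columns were left out.

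A linear model with 3 group means was fitted to all 9 arrays by lmFit and eBayes of limma 3.58.1 (R 4.3.3, two-sided tests) with Benjamini-Hochberg adjustment over 15842 genes, and an adjusted p under 0.05 was a call. The median SE of a log2 fold change was 0.0427, with a 95% interval of 0.0954 to either side. In data simulated for HL13 against DMSO over 15842 genes, 40 of 50 genes changed by 0.25 were called. At 0.5 it was 49 of 50 and at 1 and at 2 it was 50 of 50, with 11 unchanged genes called. Far fewer genes were changed there than the 9221 called with HL13. The adjusted p depends on that share, so these counts do not carry over to the real comparison. Members and gene lists were chosen with earlier results of these data known, and no list was tested. Values array by array are given for members of the list with an absolute log2 fold change of at least 1 or opposite calls, and for SREBF1, SREBF2, INSIG1, HMGCS1, SQLE, FASN and SCD. Of each list of other pathway genes, up to 2 with the largest called change were named, and any others are marked as singled out after their values were seen. Alternatives were quantile normalization, median centring, no or a stricter filter, another variance model, the mean of a gene's probe sets, only the groups compared, a replicate block and leaving out each array. Strand and probe positions were not checked. By RefSeq (GRCh38.p14), 7 of the 34 genes overlap another protein-coding gene (SREBF1, ACAT2, MVK, IDI1, ACACA, FADS2 and ACSL5) and 5 have named pseudogene copies (IDI1, FDPS, CYP51A1, HSD17B7 and SCD), whose part in the values was not tested.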

Additional observations from a re-analysis of the deposited data

How the results depend on the processing

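No call of the 33 genes turned its direction under any of the 17 alternatives. The call, or its absence, was the same under all of them for 25 genes with HL13, for 30 with LBH589 and for 27 between the compounds. Leaving out 1 array gave 10 to 12 higher and 13 to 14 lower with HL13, 13 to 15 higher and 13 lower with LBH589, and 4 to 5 higher and 10 to 14 lower for HL13 against LBH589. Over all genes it gave 8592 to 9602, 8025 to 8745 and 4165 to 5288 calls in these comparisons. With each array centred on its median, the list had 9 higher and 14 lower with HL13 and 14 and 14 with LBH589. ACSL4, SCAP and HSD17B7 then lost their calls with HL13, and LSS its call with LBH589, while ELOVL6 passed with HL13 and FADS2 with LBH589. After quantile normalization it had 12 and 16 with HL13 and 15 and 14 with LBH589. MVK, DHCR7, ELOVL6 and FADS2 then passed and HSD17B7 did not with HL13, FADS2 passed with LBH589 and MVK passed between the compounds. No pairing by replicate number was seen, since same-numbered arrays correlated at −0.30 to 0.061 in their deviations and 2 of 9 pairs were best with their own number. With so few arrays per group this check cannot exclude pairing. With the replicate number as a block, 11 genes were higher and 13 lower with HL13, 13 and 13 with LBH589, and 5 and 11 for HL13 against LBH589, and 8840, 8220 and 4442 of all genes were called. The block ended the calls of SCAP with HL13 (adjusted p = 0.0677), of MVD and LSS with LBH589 (0.0751 and 0.0909), and of CYP51A1 and MSMO1 between the compounds (0.0837 and 0.056), and no other call of the list. With only the groups compared in the fit, MVD, LSS, CYP51A1 and MSMO1 lost the same calls, CYP51A1 lost its call between the compounds also with centring and with no filter, and MSMO1 lost its call also after quantile normalization. With 3 arrays a group, the 95% intervals of the genes that did not pass reached from −0.22 to 0.23.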
